A study of Mus musculus with 21 samples.

Results

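The transcripts of the mouse mitochondrial genome were followed across cultured pluripotent cells and epiblasts of the embryo. They are the rows of the deposited count table whose gene symbol starts with mt-, and they number 35 of 33861 rows. By class they are 13 mRNAs, 2 rRNAs and 20 tRNAs. The annotation used here (GENCODE M21, build GRCm38) also lists mt-Tr and mt-Ts2, which were not analysed here. RNA was sequenced from 21 samples, each a bulk library. FS cells, labelled formative stem cells, grew in the medium A3XR and came from 2 lines. Line 1 was sampled at passages 10, 11 and 18, and for line 2 the passages were 12, 13 and 16. The EpiSC (epiblast stem cell) groups AF and AFX carry the name of the mouse embryonic stem cell line E14 and grew in media named like the groups, each sampled at passages 14, 15 and 16. Every cultured sample held 1000 cells. The remaining 9 samples are single epiblasts, the pluripotent tissue of the early embryo, with 3 from each of E5.0 (embryos 1, 2 and 4), E5.5 and E6.0. The last stage is E6.0 in the titles but 6.5 days in another label, and it is called E6.0 here. Mouse strain and genotype are not given in the sources used here. Passages of a line are not separate derivations. In every p-value with cultured groups, also those against epiblasts, these groups thus contribute the spread between passages, not between independent cultures. The FS lines differ from the line behind AF and AFX.

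Mitochondrial DNA is a small circular genome that encodes subunits of the respiratory chain and the RNAs needed to translate them. It is transcribed from both strands into long precursors, and the tRNAs that lie between the other genes mark where the precursors are cut. Almost all of its mRNAs come from transcription of the heavy strand, while mt-Nd6 is the one mRNA that comes from the light strand. In the annotation 12 of the 13 mRNAs, both rRNAs and 12 of the 20 tRNAs lie on the + strand of chromosome M, and mt-Nd6 and the other 8 tRNAs lie on the - strand. The mRNAs encode 7 subunits of complex I (NADH dehydrogenase), 1 of complex III, 3 of complex IV (cytochrome c oxidase) and 2 of complex V (ATP synthase). Pluripotent cells are known to rely less on respiration and more on glycolysis once they leave the naive state.

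mt-Nd6 is shown beside mt-Cytb and mt-Nd5 because the comparisons of cultured cells with epiblasts moved it the other way from these neighbours. mt-Cytb encodes the cytochrome b subunit of complex III, and mt-Nd5 and mt-Nd6 encode membrane subunits of complex I. The first 90 bases of each are given from GENCODE M21, with G in capitals. G makes up 28.1% of mt-Nd6, 12.2% of mt-Cytb and 9.98% of mt-Nd5, so the strands differ plainly in base composition. mt-Nd6 lies at chrM:13552-14070 on the - strand, mt-Cytb at chrM:14145-15288 and mt-Nd5 at chrM:11742-13565 on the + strand.
mt-Nd6: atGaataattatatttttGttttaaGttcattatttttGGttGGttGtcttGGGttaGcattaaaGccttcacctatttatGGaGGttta
mt-Cytb: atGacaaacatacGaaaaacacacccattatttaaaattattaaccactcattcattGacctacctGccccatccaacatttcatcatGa
mt-Nd5: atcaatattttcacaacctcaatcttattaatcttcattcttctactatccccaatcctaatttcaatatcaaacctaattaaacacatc

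The ends of mt-Nd5 and mt-Nd6 overlap, tail to tail on opposite strands, over 14 bases at chrM:13552-13565. They are printed because a read there cannot be given to either gene unless strand is used, and whether the counting used strand is not given in the sources used here. Capitals mark the shared bases in the last 30 of each gene. Without strand, RNA of the opposite strand across the rest of mt-Nd6 would also be counted on its row.
mt-Nd5 end: attatcttatactcaaTTAATCTCGAGTAA
mt-Nd6 end: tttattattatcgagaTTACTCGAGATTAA

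A second overlap and a nuclear copy concern mt-Atp6 and mt-Atp8, the complex V subunits. These genes share 43 bases at chrM:7927-7969 on the same strand, in capitals below. The first 60 bases of mt-Atp6 are also the first 60 of Gm10925, an unprocessed pseudogene on the - strand at chr1:24613974-24614651 whose 678 bases match mt-Atp6 at 100% identity.
mt-Atp8 end: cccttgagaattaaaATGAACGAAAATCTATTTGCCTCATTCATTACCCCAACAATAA
mt-Atp6: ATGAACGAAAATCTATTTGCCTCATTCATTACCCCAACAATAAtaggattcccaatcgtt
Gm10925: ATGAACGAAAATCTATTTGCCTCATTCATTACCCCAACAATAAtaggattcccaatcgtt

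Gm10925 is 1 of 7 nearly identical copies that lie side by side on chromosome 1, each with at least 99% identity over at least 90% of its length. The others are Gm29216 for the last 483 bases of mt-Co1, Gm28661 for mt-Co2, Gm28437 for mt-Co3, Gm28438 for mt-Nd3, Gm10222 for mt-Nd4l and Gm28439 for the first 876 bases of mt-Nd4. Counts on the copy and on the mitochondrial gene were close to equal for the pairs that match along their whole length. Over the 21 samples the copy held 49.0 to 50.7% of the pair's counts for mt-Co2, 48.3 to 51.5% for mt-Co3, 47.3 to 52.4% for mt-Nd4l, 50.7 to 53.8% for mt-Atp6 and 49.8 to 56.9% for mt-Nd3. It held less where only part of the gene is copied, with a median of 20.6% for mt-Nd4 and 10.3% for mt-Co1. Reads from identical sequence cannot be assigned, so the levels of these 7 mRNAs are uncertain. For mt-Co2 and its copy the counts were 2063 and 2109 in FS line 1 passage 10 but 2114 and 2034 in AF passage 14. Neither row was thus always the larger. How such reads were assigned to the rows was not tested. Less similar copies elsewhere, at 88.5 to 97.6% identity, held at most 1.502% of their mitochondrial gene's counts.

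**Figure D1:**
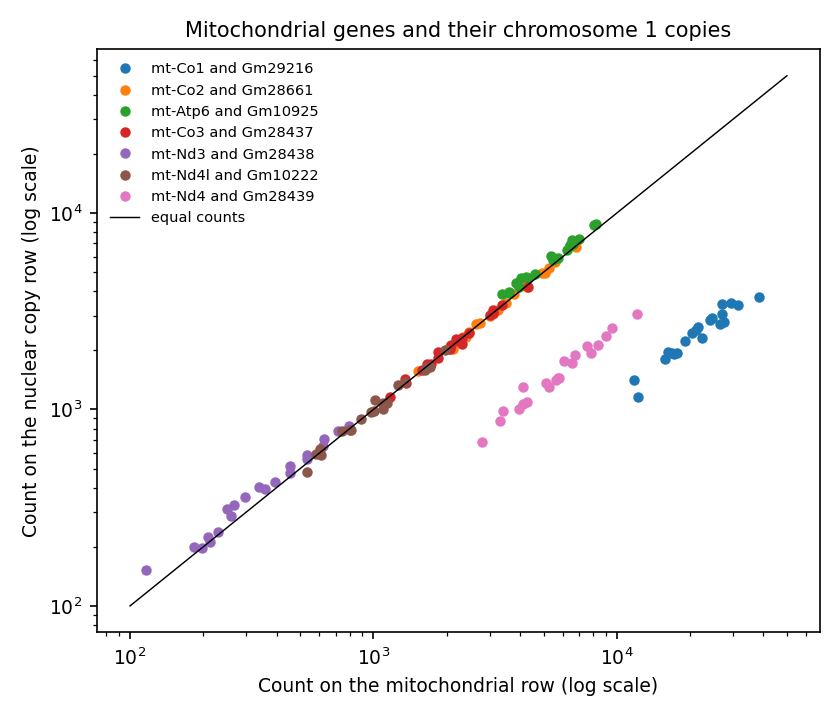
Counts on 7 mitochondrial rows (x axis, log scale) and on their nearly identical chromosome 1 copies (y axis, log scale), each point 1 of 21 samples, with a line of equal counts. The pairs of mt-Co2, mt-Co3, mt-Nd4l, mt-Atp6 and mt-Nd3 lie along the line, and those of mt-Nd4 and mt-Co1, whose copies are partial, lie below it.

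Mitochondrial transcripts made up a smaller share of the counts in every cultured sample than in any epiblast. The FS share was 4.92, 4.77 and 5.00% in line 1 (passages 10, 11 and 18) and 4.26, 5.21 and 5.28% in line 2 (passages 12, 13 and 16). AF gave 5.78, 5.67 and 5.59% and AFX 5.14, 5.601 and 5.73% at passages 14, 15 and 16. The shares at E5.0 were 8.15, 8.95 and 8.67% in embryos 1, 2 and 4. Those at E5.5 were 6.31, 7.29 and 7.11%, and those at E6.0 were 7.36, 7.03 and 7.26%, in embryos 1 to 3. The 12 cultured samples thus lay between 4.26 and 5.78% and the 9 epiblasts between 6.31 and 8.95%. FS had the lowest mean and overlapped AFX but not AF, AF overlapped AFX, E5.5 overlapped E6.0, and E5.0 overlapped no other group.

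**Figure D2:**
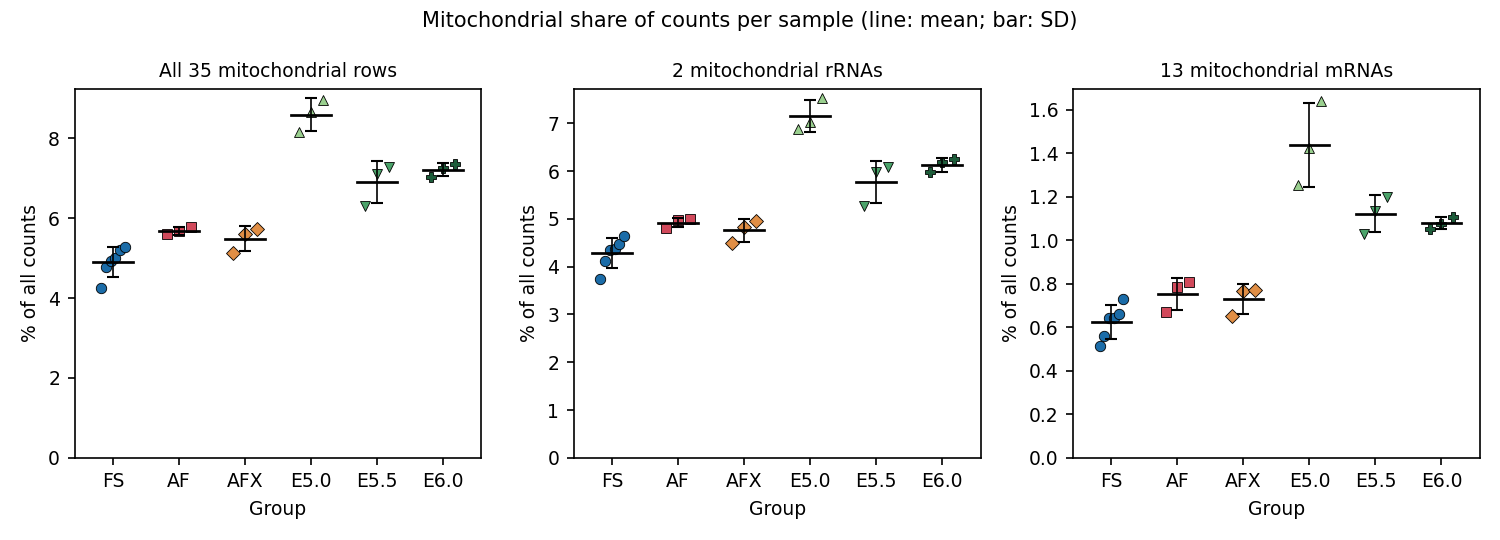
Share of all counts (y axis, percent) taken by the mitochondrial rows, their rRNAs and their mRNAs in each sample of the 6 groups, with the group mean as a line and the SD as a bar (n = 6 for FS and 3 for the others). All 9 epiblasts lie above all 12 cultured samples in each panel.

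The group means were 4.91% ± 0.370 (SD, n = 6) in FS, 5.68% ± 0.0915 (SD, n = 3) in AF, 5.49% ± 0.311 in AFX, 8.59% ± 0.408 at E5.0, 6.90% ± 0.522 at E5.5 and 7.22% ± 0.171 at E6.0. Averaged over groups, cultured minus epiblast was -2.21 percentage points. FS minus E5.5 was -1.996 points, FS minus AF was -0.770, FS minus AFX was -0.582, AFX minus AF was -0.189, and E6.0 minus E5.0 was -1.37 points. With a sample left out, AFX minus AF ran from -0.309 to -0.0134 points, the latter without AFX passage 14. Over all alternative settings it reached -0.393 points. These differences are given as a description, without a test. In bulk samples, fewer cells of a kind and less RNA per cell cannot be told apart. Total counts ran from 5827093 to 15916800 per sample, so the 95% Wilson interval of a share was at most 0.0464 points wide and covers counting error only. Nuclear rRNA loci, 8 of them in the table, took 15.5 to 23.4% of the counts in cultured samples and 15.92 to 24.2% in epiblasts, and their part in the share was not tested. With those loci left out of the total, cultured samples ran from 5.11 to 7.40% and epiblasts from 8.15 to 11.8%.

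Cells of the labelled kind were checked by markers. The 10 epiblast and pluripotency markers averaged at least 1 CPM (counts per 1000000 counts) in every group. Their summed level was 1411 to 3343 CPM in cultured samples and 3727 to 6423 CPM in epiblasts, which separates the same samples as the mitochondrial share. The summed level of 12 visceral endoderm markers, genes of the layer around the epiblast, was 213 to 690 CPM at E5.0, 23.9 to 55.5 at E5.5 and 8.46 to 10.2 at E6.0. It was 2.72 to 7.09 CPM in FS, 64.5 to 98.7 in AF and 7.23 to 24.9 in AFX. Afp, Ttr, Apoa2 and Apob were at 0 in every FS sample, and Afp and Apoa2 in every AF and AFX sample. Apoa2 was at 0 in every E5.5 and E6.0 embryo as well. The 8 feeder or fibroblast markers summed to 244 to 317 CPM in AF, 17.7 to 50.01 in FS, 39.5 to 68.1 in AFX and 9.30 to 22.1 in epiblasts. The 8 extraembryonic ectoderm markers summed to 31.1 to 61.5 CPM in FS, 44.5 to 159 in AF and AFX and 24.2 to 171 in epiblasts. The part of these markers in the mitochondrial share was not tested.

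The 2 rRNAs, mt-Rnr1 of the small and mt-Rnr2 of the large mitochondrial ribosomal subunit, carried most of these counts. They made up 85.9 to 88.6% of mitochondrial counts in cultured samples and 81.0 to 85.2% in epiblasts. mt-Rnr1 had a lowest, median and highest level of 10378, 13503 and 14422 CPM in the 12 cultured samples and of 16082, 18332 and 23167 CPM in the 9 epiblasts. For mt-Rnr2 these were 26342, 32684 and 36630 CPM in cultured samples and 36683, 44062 and 52985 CPM in epiblasts. Neither rRNA overlapped between cultured samples and epiblasts, though for mt-Rnr2 the nearest samples were almost level. Per kilobase of gene, the mean level of mt-Rnr2 was 20689 CPM in cultured samples and 28156 CPM in epiblasts, above that of mt-Rnr1 at 13493 and 19905 CPM. Counts on rRNAs per count on mRNAs were 6.11 to 7.80 in cultured samples and 4.28 to 5.76 in epiblasts, again without overlap.

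Counts were compared with edgeR's quasi-likelihood F-test over all genes that passed its count filter, with p-values adjusted by the Benjamini-Hochberg method and a threshold of 0.05. The mean of the 3 cultured groups was set against the mean of the 3 epiblast stages, and 22 of the 35 transcripts could be tested. In this comparison 17 were lower and 1 was higher in culture, against a background of 61.8% called among all 16614 genes tested (27.9% lower and 33.9% higher). The 17 include mt-Tl1 and mt-Tt, which passed the filter through the epiblasts, where they were higher, and were too low to be tested among the cultured samples, so their direction was favoured by the filter. The 2 rRNAs and 13 mRNAs were all tested, with a median log2 fold change of -0.69 and -1.15, against 0.09 for all genes tested. Both rRNAs fell, mt-Rnr1 by 0.74 ± 0.06 (SE) and mt-Rnr2 by 0.63 ± 0.05 on the log2 scale, with edgeR adjusted p of 2.55e-10 and 3.97e-10. All 13 mRNAs passed the threshold, 12 lower and mt-Nd6 higher.

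Among complex I subunits, mt-Nd2 and mt-Nd3 differed most. mt-Nd2 was 247 to 456 CPM (median 404) in cultured samples and 803 to 1216 CPM (median 863) in epiblasts. mt-Nd3, uncertain because of its nuclear copy, was 14.96 to 31.0 CPM in cultured samples and 47.8 to 76.2 CPM in epiblasts. Neither overlapped between the 2 kinds of sample. mt-Nd2 fell by 1.48 ± 0.10 and mt-Nd3 by 1.54 ± 0.12 on the log2 scale (edgeR adjusted p = 7.07e-11 and 2.04e-10). The other heavy-strand subunits of the complex fell as well, mt-Nd1 by 1.26, mt-Nd5 by 1.26, mt-Nd4 by 1.15 and mt-Nd4l by 1.06.

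mt-Cytb, the complex III subunit, was 647 to 1149 CPM in cultured samples and 1431 to 2629 CPM in epiblasts, and it fell by 1.15 ± 0.11. The complex IV subunits mt-Co1, mt-Co2 and mt-Co3 form the catalytic core of cytochrome c oxidase. mt-Co2 was 197 to 287 CPM in cultured samples against 390 to 726 CPM in epiblasts and fell by 1.18 ± 0.08, and mt-Co3 fell by 1.01 ± 0.07. mt-Co1 fell by less, 0.75 ± 0.07, and its samples overlapped: they ran from 1281 to 2471 CPM in culture and from 2072 to 4071 CPM in epiblasts. The complex V subunit mt-Atp8 fell by 0.93 ± 0.12. The other, mt-Atp6, was 317 to 743 CPM in culture and 483 to 762 CPM in epiblasts, fell by 0.38 ± 0.14 (edgeR adjusted p = 0.0272), and lost the call in 6 of 29 alternative settings, with adjusted p of up to 0.0846. These were the fit with no count filter and those without AF passage 15, AF passage 16, AFX passage 14, E5.0 embryo 4 or E6.0 embryo 3.

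**Figure D3:**
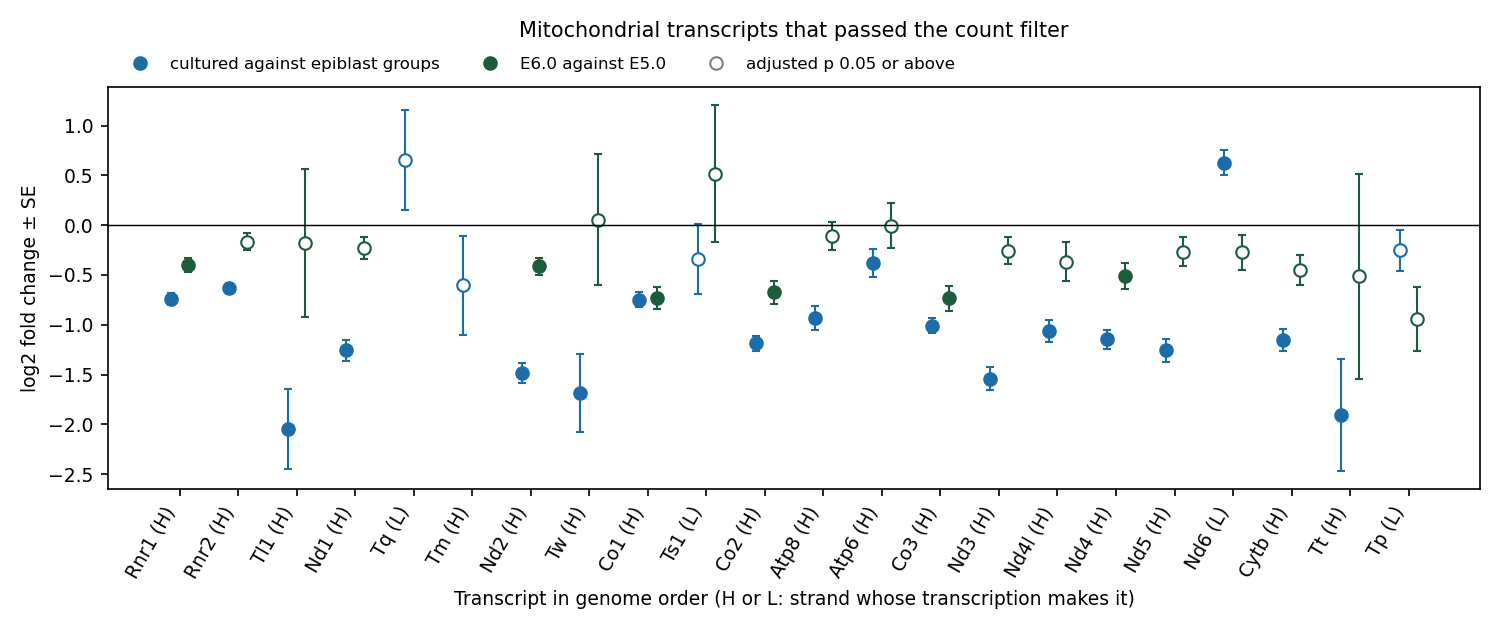
Log2 fold change with its SE (y axis) of the mitochondrial transcripts tested, in genome order (x axis, H or L for the strand), for cultured against epiblast groups and for E6.0 against E5.0. Open points did not pass the threshold. In the first comparison mt-Nd6 at 0.63 is the called transcript above 0, and the other called ones lie between -2.05 and -0.38.

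mt-Nd6 was higher in culture. Its level in FS was 315, 500 and 224 CPM in line 1 (passages 10, 11 and 18) and 235, 337 and 311 CPM in line 2 (passages 12, 13 and 16). AF gave 252, 260 and 274 CPM and AFX 406, 299.6 and 330 CPM. Epiblasts gave 151, 233 and 147 CPM at E5.0, 199, 184 and 182 CPM at E5.5 and 179, 131 and 139 CPM at E6.0. E5.0 embryo 2 at 233 CPM lay above FS line 1 passage 18 at 224 CPM, and every other epiblast lay below every cultured sample. mt-Nd6 rose by 0.63 ± 0.13 on the log2 scale (edgeR adjusted p = 0.000232), and kept the call in all 29 alternative settings, at 0.57 to 0.70.

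Within the mRNAs, mt-Nd6 took 3.13 to 7.78% of counts in cultured samples and 0.899 to 1.93% in epiblasts. The ratio of mt-Cytb to mt-Nd6 counts was 1.58 to 4.08 in cultured samples and 7.41 to 17.8 in epiblasts. For mt-Nd5 to mt-Nd6 it was 1.48 to 5.23 and 9.40 to 17.1. These ratios do not depend on the total count of a library, and neither overlapped between the 2 kinds of sample. They were chosen after the values were seen and carry no test.

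**Figure D4:**
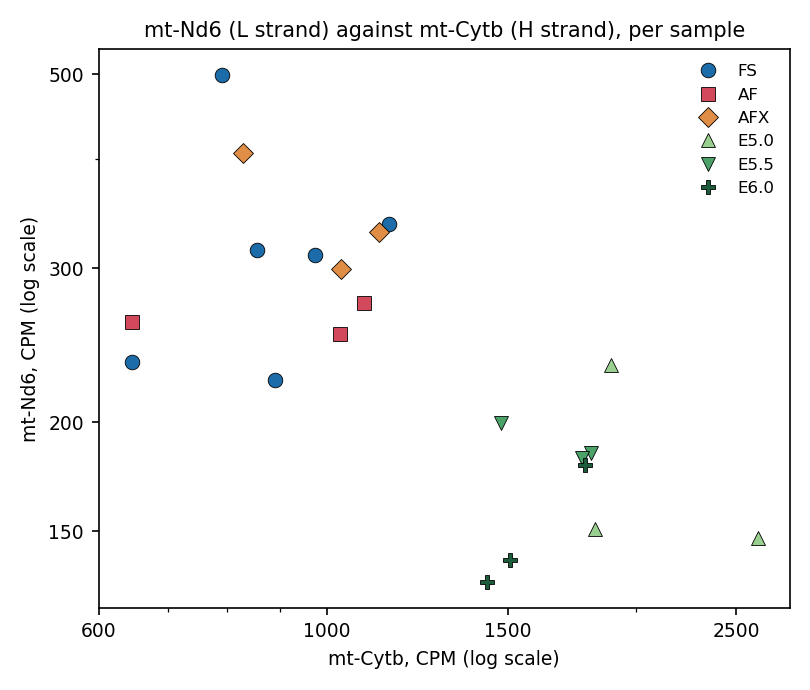
CPM of mt-Nd6 (y axis, log scale) against mt-Cytb (x axis, log scale), each point 1 sample. The 12 cultured samples lie to the left, at 647 to 1149 CPM of mt-Cytb, and the 9 epiblasts to the lower right, at 1431 to 2629 CPM of mt-Cytb and 131 to 233 CPM of mt-Nd6.

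The tRNAs were barely covered. All 20 together held 59 to 325 counts per sample, or 0.000644 to 0.00346% of all counts, and mt-Tp, which carries proline, held 1488 of them over all samples. Only 7 passed the count filter over the 21 samples: mt-Tl1, mt-Tq, mt-Tm, mt-Tw, mt-Ts1, mt-Tt and mt-Tp. The other 13 held 3 to 114 counts each over the 21 samples. mt-Tw, for tryptophan, was 0.182 to 2.07 CPM in cultured samples and 0.515 to 5.68 CPM in epiblasts. mt-Tl1, a tRNA for leucine between mt-Rnr2 and mt-Nd1, was 0.129 to 0.901 CPM and 0.681 to 3.57 CPM. Cultured and epiblast samples overlapped for both. A total of 3 counts stands for 0.188 to 0.515 CPM, and many cultured samples lay near that limit for mt-Tl1. mt-Tw, mt-Tl1 and mt-Tt, for threonine, were lower in culture by edgeR, with adjusted p of 0.000726, 0.000136 and 0.00518, and the sizes of their fitted changes (-1.69, -2.05 and -1.91) depend on the prior count. Of these, mt-Tl1 and mt-Tt passed the filter only through the epiblasts, so a lower level in culture was favoured by the choice of rows. With no filter on low counts both still passed edgeR's threshold, lower in culture. mt-Tp (-0.25), mt-Ts1 (-0.34), mt-Tm (-0.60) and mt-Tq (0.66) did not pass. With a sample left out they ran from -0.35 to -0.20, -0.57 to -0.07, -0.80 to -0.43 and 0.41 to 0.95, in the same order.

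Of these tRNAs, mt-Tp and mt-Tw are printed because they held the most counts on the - and + strands. mt-Tp is on the - strand at chrM:15356-15422, and mt-Tw on the + strand at chrM:4950-5016, where its first 2 bases, in capitals, are also the last 2 of mt-Nd2.
mt-Tp: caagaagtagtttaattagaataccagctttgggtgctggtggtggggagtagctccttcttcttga
mt-Tw: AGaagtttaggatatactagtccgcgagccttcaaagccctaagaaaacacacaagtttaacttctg

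Set against E5.5 alone, FS cells had lower levels of most mitochondrial transcripts. Of the 22 transcripts tested, 16 were lower, mt-Tl1 and mt-Tt with their filter-favoured direction among them, and 1 was higher in FS, against 43.8% called among all genes (20.8% lower and 23.0% higher). The median log2 fold change was -1.19 over the 13 mRNAs, 11 of them lower, and 0.08 over all genes. This comparison shares its samples with the one above, so its values stand beside those and add no separate evidence. mt-Nd3 fell by 1.53 ± 0.18, mt-Nd2 by 1.47 ± 0.15, mt-Nd5 by 1.44 ± 0.17, mt-Co2 by 1.25 ± 0.11 and mt-Co1 by 0.95 ± 0.11. mt-Rnr1 fell by 0.78 ± 0.09 and mt-Rnr2 by 0.65 ± 0.08.

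mt-Atp6 gave -0.54 ± 0.22 in that comparison and did not pass (edgeR adjusted p = 0.0527). It passed in 5 of 20 alternative settings, among them FS line 2 alone (-0.78) and the fit without FS line 1 passage 11 (-0.76, edgeR adjusted p = 0.000473), and its adjusted p over the settings ran up to 0.329. mt-Nd6 was 224 to 500 CPM in FS and 182 to 199 CPM at E5.5, without overlap, and it gave 0.51 ± 0.20 with an edgeR adjusted p of 0.0439. That call was lost in 11 of 20 alternative settings, with adjusted p of up to 0.139, among them the fits without FS passages 10, 11, 13 or 16 and without any 1 of the E5.5 embryos. Without FS line 1 passage 11, where mt-Nd6 was highest, its change was 0.34, 1.5 times less than with it. mt-Tl1 lost its call without E5.5 embryo 1, and mt-Tt with FS line 1 alone.

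Between embryo stages, E6.0 epiblasts had less complex IV mRNA than E5.0 epiblasts. mt-Co1 was 3212, 3492 and 4071 CPM in E5.0 embryos 1, 2 and 4 and 2250, 2072 and 2234 CPM in E6.0 embryos 1 to 3. For mt-Co2 the values were 635, 532 and 726 CPM and then 415, 391 and 389.7 CPM. For mt-Co3 they were 372, 376 and 459 CPM and then 286, 238 and 214 CPM. In all of these subunits every E6.0 embryo was below every E5.0 embryo, and the E5.5 values, such as 2361, 2890 and 2684 CPM for mt-Co1, lay below the E5.0 embryos too.

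mt-Co1 fell by 0.73 ± 0.11, mt-Co2 by 0.68 ± 0.12 and mt-Co3 by 0.74 ± 0.12 on the log2 scale, with edgeR adjusted p of 0.000422, 0.00112 and 0.000735. In all, 6 of the 20 transcripts tested were lower at E6.0 and 0 were higher, against 21.8% called among all 14228 genes (11.6% lower and 10.2% higher). The median log2 fold change was -0.32, and -0.02 over all genes. The other called transcripts were mt-Rnr1 (-0.40 ± 0.07), mt-Nd2 (-0.41 ± 0.09) and mt-Nd4 (-0.51 ± 0.13). The call of mt-Nd4 was lost without E5.0 embryo 4, where its change was -0.31, and without E6.0 embryo 1 or E6.0 embryo 2. mt-Cytb gave -0.45 with an edgeR adjusted p of 0.0512 and passed in 4 of 15 alternative settings, with adjusted p of up to 0.167. With an embryo left out its change ran from -0.56 to -0.23. The count of called transcripts was 10 without E5.0 embryo 1, mt-Cytb, mt-Nd1, mt-Nd5 and mt-Nd4l being added.

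mt-Rnr2 went from 47142, 52985 and 47086 CPM at E5.0 to 44062, 43135 and 45352 CPM at E6.0, a change of -0.17 ± 0.09 that did not pass (edgeR adjusted p = 0.190). Every E6.0 embryo was below every E5.0 embryo for mt-Rnr2, and its change was -0.06 without E5.0 embryo 2 and -0.22 without E5.0 embryo 1. The complex V subunits stood near 0, with mt-Atp6 at -0.01 ± 0.22 and mt-Atp8 at -0.11 ± 0.14, and the sign of either changed in some settings. mt-Atp6 spread widely among E6.0 embryos, at 492, 617 and 762 CPM. Complex IV subunits took 30.9 to 33.6% of mitochondrial mRNA counts at E5.0, 29.3 to 31.0% at E5.5 and 25.6 to 26.6% at E6.0. For complex I subunits the shares were 45.8 to 49.3%, 46.6 to 49.9% and 50.2 to 52.7%. In level the 7 complex I mRNAs changed by -0.51 to -0.23 on the log2 scale from E5.0 to E6.0. Both shares rest partly on rows with nuclear copies. mt-Tp was 9.525, 8.41 and 9.26 CPM at E5.0 and 6.12, 5.15 and 3.14 CPM at E6.0, and gave -0.94 ± 0.32 with an edgeR adjusted p of 0.0519. mt-Tp passed in 2 of 15 alternative settings, with adjusted p from 0.0317 to 0.215. The visceral endoderm markers given above, at 213 to 690 CPM in E5.0 and 8.46 to 10.2 CPM in E6.0 embryos, differed between the same stages, and their part in the result was not tested.

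**Figure D5:**
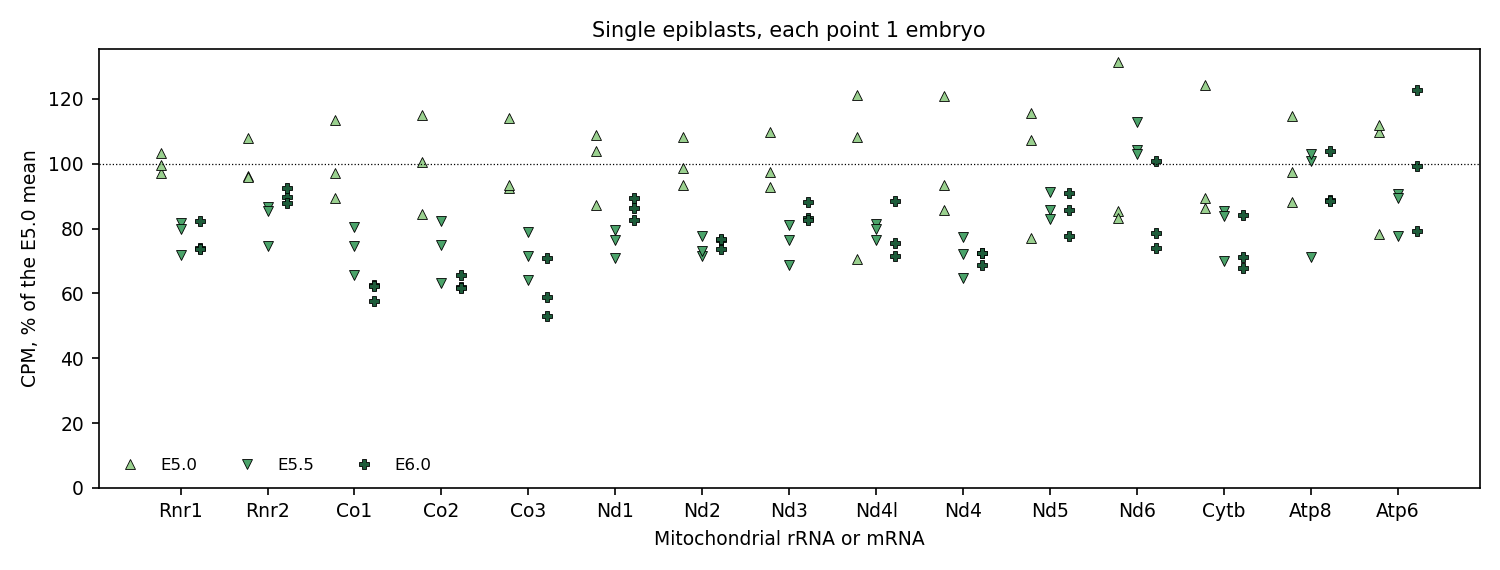
CPM of the 15 mitochondrial rRNAs and mRNAs (x axis) in each epiblast as a percentage of the mean of the E5.0 embryos (y axis), each point 1 of 9 embryos. All E6.0 embryos lie below all E5.0 embryos for mt-Co1, mt-Co2 and mt-Co3, for both rRNAs, and for mt-Nd2, mt-Nd3, mt-Nd4 and mt-Cytb, and the stages overlap for mt-Atp6 and mt-Atp8.

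Among cultured cells the differences were smaller. FS against AF gave 3 of 19 transcripts lower in FS and 0 higher, against 19.5% called among all 16052 genes (10.6% lower and 8.86% higher). mt-Co1 was 1281 to 1895 CPM (median 1628) in FS and 2205, 2471 and 2064 CPM in AF at passages 14, 15 and 16, without overlap. It fell by 0.55 ± 0.11 (edgeR adjusted p = 0.00348) and kept the call in all 20 alternative settings. mt-Nd4l was 51.2 to 79.0 CPM (median 69.1) in FS and 104, 73.2 and 106 CPM in AF, and mt-Rnr2 was 26342 to 32614 CPM (median 31345) in FS and 35269, 36630 and 33687 CPM in AF. mt-Nd4l fell by 0.57 ± 0.15 and mt-Rnr2 by 0.28 ± 0.08 (edgeR adjusted p = 0.0174 and 0.0228).

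Both of those calls were lost with FS line 1 alone and without AF passage 14. That of mt-Rnr2 was also lost without AF passage 15, and that of mt-Nd4l without AF passage 16. The count was 1 without AF passage 14 and 5 without FS passage 13 or 16. mt-Nd6 did not pass, at 0.21 ± 0.21, and ran from 0.02 to 0.29 with a sample left out. The complex V subunit mt-Atp6 gave -0.61 ± 0.22 and did not pass (edgeR adjusted p = 0.0686), but passed in 4 of 20 alternative settings, among them the fit without FS line 1 passage 11 (-0.84, edgeR adjusted p = 0.000175). mt-Rnr1 gave -0.30 ± 0.10 and did not pass (edgeR adjusted p = 0.0528), but passed in 9 of 20 settings, with adjusted p from 0.0141 to 0.234 over all 20. mt-Co3 passed in 4 of the settings and mt-Nd4 in 1, that without AF passage 15. AF also had higher summed levels of the feeder and visceral endoderm markers than FS, and their part in these differences was not tested.

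FS against AFX called 0 of 19 transcripts by edgeR, against 8.70% called among all genes (4.92% lower and 3.78% higher). At an unadjusted p under 0.05 there were 4, against 22.6% of all genes, all lower in FS: mt-Nd4l (-0.47 ± 0.15), mt-Nd5 (-0.40 ± 0.19), mt-Co1 (-0.29 ± 0.12) and mt-Rnr2 (-0.23 ± 0.08). DESeq2 called 1, mt-Nd4l. AFX against AF called 0 of 19 by edgeR (background 8.73%, 4.42% lower and 4.30% higher), with 1 at an unadjusted p under 0.05 (background 21.8%), mt-Tp at 0.88 ± 0.41, and DESeq2 called 0. mt-Tp was 4.25, 4.11 and 7.01 CPM in AF and 11.03, 7.79 and 9.75 CPM in AFX. Line 2 against line 1 of FS also called 0 of 19 (background 3.85%, 1.20% lower and 2.65% higher), with 2 at an unadjusted p under 0.05 (background 17.4%), mt-Atp8 (0.56 ± 0.19) and mt-Co1 (0.29 ± 0.11), and DESeq2 called 0. Between the lines mt-Atp8 passed in 2 of 14 alternative settings. With a sample left out mt-Atp8 ran from 0.32 to 0.76 and mt-Co1 from 0.19 to 0.37. A p above the threshold does not show that the levels were equal.

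Nuclear genes of the same complexes were read from a list of 72 subunits of complexes I, III, IV and V, of which 71 could be tested. In cultured against epiblast groups 52 were lower and 2 higher, 76.1% called against 61.8% of all genes, with a median log2 fold change of -0.36 against 0.09 for all genes. In FS against E5.5 40 were lower and 0 higher, 56.3% against 43.8%, with a median of -0.41 against 0.08. For E6.0 against E5.0 10 were lower and 1 higher, and their 15.5% was below the 21.8% of all genes, whereas their median log2 fold change was -0.20 against -0.02 for all genes, with 55 of 71 below 0. For FS against AF 6 were lower and 3 higher, and their 12.7% was below the 19.5% of all genes, with a median of -0.08 against 0.02.

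A list of 51 nuclear genes for upkeep and expression of mitochondrial DNA gave 27 lower and 8 higher of 50 tested in cultured against epiblast groups, against 27.9% lower and 33.9% higher among all genes. Top1mt, the mitochondrial DNA topoisomerase, rose by 1.39 ± 0.15, Polg, the catalytic subunit of the mitochondrial DNA polymerase, by 0.64 ± 0.08, and Ppargc1b, a transcriptional coactivator, by 0.62 ± 0.16. Tbrg4 (-1.02), Fastkd2 (-0.86) and Fastkd5 (-0.84), all of a family of mitochondrial RNA-binding proteins, fell. Polg averaged 180 CPM in AF, 104 CPM in AFX and 58.8 CPM in FS, and 77.6 CPM at E5.0, 58.1 CPM at E5.5 and 41.3 CPM at E6.0, so the FS mean lay within the range of the stage means. Polg was lower in FS than in AF (-1.70 ± 0.09), lower in FS than in AFX (-0.90 ± 0.09) and lower in AFX than in AF (-0.80 ± 0.11).

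In FS against E5.5 the same list gave 18 lower and 4 higher, 44% called and close to the 43.8% of all genes, with Tbrg4 (-1.23), Fastkd5 (-1.23) and Ssbp1, the mitochondrial single-stranded DNA-binding protein (-0.79), among the lower and Top1mt (1.07), Mterf2 (1.06) and Polg2 (0.90) among the higher. For E6.0 against E5.0 the list's 12% was below the 21.8% of all genes: 3 were lower (Mterf1a, -1.34; Ppargc1b, -1.19; Polg, -0.93) and 3 higher (Fastkd1, 1.03; Angel2, 0.88; Elac2, which cuts tRNA 3′ ends, 0.45). FS against AF gave 1 lower, Polg, and 3 higher, Mterf2 (0.85), Tefm, the mitochondrial transcription elongation factor (0.65), and Mgme1 (0.46), and its 8% was below the 19.5% of all genes. In FS against AFX 1 was lower, Polg, or 2% against 8.70% of all genes. In AFX against AF 2 were lower, Polg and Esrra (-1.35), or 4% against 8.73%. Line 2 against line 1 of FS gave 2 higher, Mtpap, the mitochondrial poly(A) polymerase (0.69), and Pnpt1, a subunit of the mitochondrial RNA degradosome (0.66), or 4% against 3.85%.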

How the data were processed

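The deposited table holds whole-number counts per gene, 1 column per sample, unnormalised by its values. Per the submitters' processing notes Trim Galore, TopHat2 2.1.0, featureCounts 1.5.0 and build mm10 were named; strand and multi-mapping settings are not given in the sources used here. RNA was extracted as total RNA with a PicoPure kit per the labels' protocols. Coordinates and sequences come from GENCODE M21 (GRCm38, the same build), and copies were found with BLAST 2.17.0. CPM is a count per 1000000 counts of the sample. Counts were fitted in R 4.3.3 with edgeR 4.0.16 (filterByExpr, TMM, robust quasi-likelihood F-tests, Benjamini-Hochberg adjustment over all genes tested, threshold 0.05): 12 cultured samples, 9 epiblasts, or all 21 for comparisons across both. Alternatives included DESeq2 1.42.0, no filter, other library sizes, the FS lines apart, and each sample left out. Members and gene lists were chosen with earlier results of these data known. Every mitochondrial mRNA and rRNA is named; tRNAs are named if they passed a count filter or averaged at least 10 counts, and mt-Tv and mt-Tk outside this rule after their values were seen; from the list of upkeep genes up to 3 called genes per direction are named, and other lists are given by counts, medians and ranges. The same passage or embryo numbers were checked for pairing, which the labels do not state and which 3 samples per group cannot exclude.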

Additional observations from a re-analysis of the deposited data

Results flagged for a closer look

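Among the 6 FS samples, 3 values stood apart from the rest by Dixon's test at the 95% level, which was applied to 22 quantities; chance alone flags about 1 group in 20. mt-Rnr2 was lowest in line 2 passage 12 at 26342 CPM, and the next sample was at 30397 CPM. mt-Atp6 was highest in line 1 passage 11 at 743 CPM, and the next sample was at 402 CPM. In that sample the ratio of mt-Atp6 to mt-Co3 counts was 4.92, against 2.03 to 2.68 in the other 5.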

How the results depend on the processing

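Over 1598 refitted fold changes of single transcripts, 1519 kept their direction and side of the threshold, 28 lost a call, 42 gained one and 9 changed sign. Only chosen transcripts were refitted in each comparison: 3 for AFX against AF, 3 for line 2 against line 1 and 5 for FS against AFX. Sign changes of the transcripts not refitted were therefore not looked at. All sign changes were in E6.0 against E5.0, at values near 0: mt-Atp6 was 0.0291 with no filter, 0.0024 with library sizes outside the mitochondrial rows, 0.0015 with the nuclear rRNA loci left out as well, and -0.1955 to 0.1921 with an embryo left out (above 0 without E5.0 embryos 2 or 4 and E6.0 embryos 1 or 2). mt-Nd6 was -0.3936 to 0.0242 and mt-Atp8 -0.1582 to 0.0352 with an embryo left out, above 0 without E5.0 embryo 2 and E5.0 embryo 4 respectively.

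The counts of called transcripts for cultured against epiblast groups (15 to 20) and FS against E5.5 (14 to 18) stayed within 1.5 times. FS against AF gave 3, but 5 by DESeq2's Wald test, 6 with the FS lines as separate groups, 5 with line 2 alone, and 1 to 5 with a sample left out. FS against AFX gave 0, but 1 by DESeq2, with no filter, with the 2 groups alone, with the lines separate and with line 2 alone, and 0 to 1 with a sample left out. Line 2 against line 1 gave 0, but 2 with no filter and 0 to 1 with a sample left out. E6.0 against E5.0 gave 6, and 5 to 10 with a sample left out.

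The difference in share was -2.81 points for cultured against epiblast groups with nuclear rRNA loci out of the total, -0.510 for mRNAs and -1.70 for rRNAs alone. In the same order it was -2.77, -0.497 and -1.499 for FS against E5.5, and -1.88, -0.361 and -1.01 for E6.0 against E5.0. FS against AF gave -1.26 with those loci out and -0.130 for mRNAs, and FS against AFX -0.105 for mRNAs. Line 2 minus line 1 was 0.0203 points, -0.190 with those loci out, and -0.163 to 0.351 with a sample left out.

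AF and AFX share passage numbers and the stages share embryo numbers. Deviations of same-numbered AF and AFX samples correlated at -0.19, -0.13 and 0.28, and of E5.0 and E6.0 embryos 1 and 2 at 0.03 and -0.09. Differently numbered AF and AFX samples ran from -0.36 to 0.39. With 3 samples per group this check cannot exclude pairing, and the labels do not state any. With the replicate block AFX against AF called 0 transcripts, and E6.0 against E5.0 called 7, mt-Rnr2 (-0.22) being added. The tRNAs are limited by depth, at 59 to 325 counts per sample in all.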

Other observations

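E5.0 embryo 4 held 325 tRNA counts, against 137 and 95 in E5.0 embryos 1 and 2. Of these, mt-Tv, the tRNA for valine between both rRNA genes, had 47 counts, against 0 to 9 in each of the other 20 samples. mt-Tk, the tRNA for lysine between mt-Co2 and mt-Atp8, had 28, against 0 to 7 in the others. In this embryo mt-Rnr1 was at 23167 CPM, above the 21771 and 22302 CPM of E5.0 embryos 1 and 2, and mt-Rnr2 at 47086 CPM, below their 47142 and 52985 CPM. The rRNAs made up 81.0% of its mitochondrial counts, against 84.6 and 84.1% in embryos 1 and 2. These tRNAs were chosen after their values were seen.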
